A study of Mus musculus with 46 samples.

Results

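Expression of 10 acute phase genes other than the serum amyloid A family was described in the liver of mice on 4 diets. The genes were Lcn2, Hp, Hpx, Steap4, Orm1, Orm2, Apcs, Fgg, Itih3 and Itih4. They were found through the RefSeq accession of each array probe, which gave 11 probes for the 10 genes, out of 20887 genes named on the array and 55681 distinct probes, of which 27509 could be given a gene symbol. Each gene was read from its brightest probe, and Itih4 was the gene with a second probe. Male C57Bl/6 mice started the diets at 12 weeks of age, ate them for 8 weeks and were killed at 20 weeks. The high fat diet (HFD) supplied 45% of energy as fat and the low fat diet (LFD) 10%. In HFD + inulin and HFD + inul PB, fiber took the place of 5% corn starch and 5% cellulose by weight in the HFD. The fiber was inulin, a fermentable plant fructan, in the first, and the propionate and butyrate esters of inulin, 5% of each, in the second. All 4 groups were of the same strain, sex and age, and the labels name no genetic change in any of them. Each array carried the Cy3-labelled RNA of 1 sample, with 6 arrays per diet and 24 in all, and 22 further arrays carried cecum from the same diets. The labels give no identifier of the mouse, so P values measure the spread between these arrays.

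The acute phase response is the change in plasma proteins that the liver makes when it receives inflammatory signals. Cytokines of the interleukin-6 type act on hepatocytes through STAT3, interleukin-1 acts through NF-kB and C/EBP factors, and the output of carrier, scavenger and protease inhibitor proteins goes up while that of others, such as albumin, goes down. Low-grade forms of this response are known in obesity and fatty liver, where it is read from proteins such as haptoglobin, orosomucoid and serum amyloid A.

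The 24 liver arrays lay on 3 slides, each with 2 arrays of every diet. Between 46.4% and 51.7% of spots were well above background on a liver array. All 10 genes were well above background on all 24, none of their spots was saturated and none was flagged as an outlier, and all 8 hepatocyte markers examined were well above background on all 24. On 3 liver arrays (HFD + inulin replicate 6, HFD + inul PB replicate 4 and LFD replicate 4) the pancreas enzymes Prss2, Cpa1 and Pnlip were also well above background, and results that change without these arrays are given below. Values are normalised log2 signals, and a difference of 1 is a change of 2-fold. The signal of one probe cannot be set against that of another. As RNA was taken from whole liver, fewer cells of a type and less RNA per cell cannot be told apart.

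The start regions of the genes were read for letters that C/EBP and STAT factors are known to bind. RefSeq promoter windows (GRCm38.p6) were matched for 8 of the 10 genes, and no window was matched for Orm1 or Hp. The 250 bases before the start are printed, 5′ to 3′ on the strand of the gene, for Lcn2, Orm2, Steap4 and Apcs, whose levels differed most between diets among the genes with a window. The windows are chr2:32387740-32387989 on the minus strand for Lcn2, chr4:63362199-63362448 on the plus strand for Orm2, chr5:7960222-7960471 on the plus strand for Steap4 and chr1:172895055-172895304 on the minus strand for Apcs. Capitals mark matches, on either strand, to TTGCNNAA, a core that C/EBP factors bind, and to TTCNNNGAA, a core that STAT factors bind.
Lcn2: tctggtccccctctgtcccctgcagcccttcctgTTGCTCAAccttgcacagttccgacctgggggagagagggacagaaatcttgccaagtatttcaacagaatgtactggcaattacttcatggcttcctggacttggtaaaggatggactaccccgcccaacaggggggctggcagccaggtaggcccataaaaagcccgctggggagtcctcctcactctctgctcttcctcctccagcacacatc
Orm2: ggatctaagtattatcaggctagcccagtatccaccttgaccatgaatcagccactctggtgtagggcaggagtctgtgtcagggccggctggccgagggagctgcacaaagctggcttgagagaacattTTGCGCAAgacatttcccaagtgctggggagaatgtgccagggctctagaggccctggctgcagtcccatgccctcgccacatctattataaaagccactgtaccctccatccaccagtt
Steap4: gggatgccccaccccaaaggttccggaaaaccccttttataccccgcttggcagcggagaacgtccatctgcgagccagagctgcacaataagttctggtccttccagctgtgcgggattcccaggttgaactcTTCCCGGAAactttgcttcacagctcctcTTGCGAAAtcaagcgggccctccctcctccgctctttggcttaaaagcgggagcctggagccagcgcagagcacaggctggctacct
Apcs: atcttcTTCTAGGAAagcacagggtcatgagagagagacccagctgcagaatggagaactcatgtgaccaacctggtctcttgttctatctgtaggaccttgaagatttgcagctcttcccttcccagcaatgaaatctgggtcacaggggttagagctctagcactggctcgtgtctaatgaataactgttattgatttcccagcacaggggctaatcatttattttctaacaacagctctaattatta
TTGCNNAA was found in the windows of Lcn2, Orm2, Hpx and Steap4, 216, 120, 200 and 87 bases before the start, and in 9.56% of all 32851 promoter windows of this length. TTCNNNGAA was found in those of Steap4, Itih4 and Apcs, 116, 51 and 244 bases before the start, and in 7.02% of all windows. The matches do not overlap each other. They describe letters in the window and not bound sites.

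**Figure D1:**
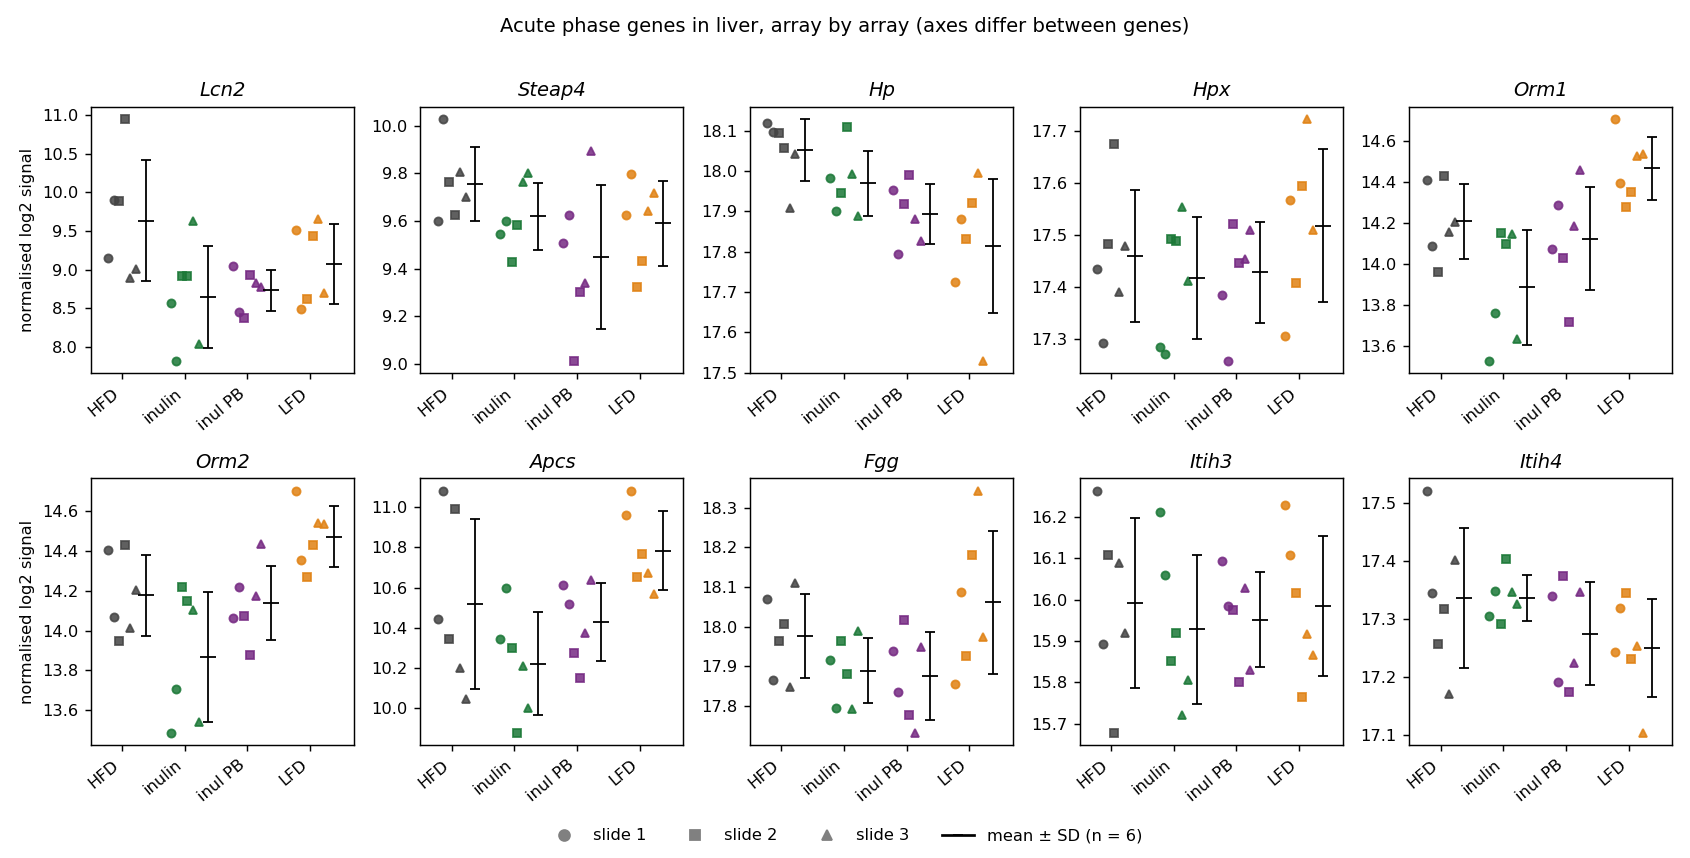
Normalised log2 signal of each of the 10 genes on every liver array (vertical axis, scaled separately for each gene) by diet (horizontal axis), with the slide as the marker shape and the mean ± SD of 6 arrays in black. Lcn2 reached 10.95 on 1 HFD array and stayed at or below 9.04 on all HFD + inul PB arrays, while every LFD array of Orm1 and Orm2 lay above every HFD + inulin array.

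Lcn2, a secreted protein that captures bacterial iron-carrying siderophores and that hepatocytes make in inflammation, had the widest spread and the largest difference between diets of the 10 genes. On the 6 HFD arrays its log2 signal ran from 8.89 through a median of 9.52 to 10.95. On HFD + inulin it ran from 7.82 through 8.74 to 9.63, and on HFD + inul PB from 8.38 through 8.80 to 9.04. On LFD it ran from 8.50 through 9.07 to 9.65. HFD held the highest arrays and HFD + inul PB the tightest set, with an SD of 0.27 against 0.78 on HFD, and the arrays of every pair of diets overlapped.

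Relative to HFD, the log2 level of Lcn2 was lower on HFD + inulin by a difference of -0.99 (SE 0.33; limma P = 0.00671, exact permutation P = 0.0390), a 1.98-fold lower level. The difference on HFD + inul PB was -0.90 (SE 0.33; limma P = 0.0123, exact permutation P = 0.0108), or 1.86-fold lower, and that on LFD was -0.56 (SE 0.33). These comparisons share the 6 HFD arrays. By the criteria of the study, a fold change over 1.5 with unadjusted P under 0.01, the first passed, as 0.219% of all probes did in that direction, and the others did not. The mean of the fiber diets also passed against HFD, with a difference of -0.94 (SE 0.28), as 0.199% of all probes did in that direction. None passed an adjusted P (limma, Benjamini-Hochberg over all probes) of 0.05, with adjusted P = 1.00 for each fiber comparison with HFD. The fiber diets did not differ in Lcn2 beyond their spread, with HFD + inul PB minus HFD + inulin at 0.09 and a 95% interval from -0.59 to 0.77. The exact permutation tests compared 6 with 6 arrays, two-sided, in a family of 60 (10 genes, 6 pairs of diets), and the smallest P they can give is 0.00216.

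The Lcn2 calls depended on single arrays. Without HFD replicate 4, the array at 10.95, HFD + inulin was at -0.72, HFD + inul PB at -0.64 and the mean of the fiber diets at -0.68, and none passed. The call on HFD + inulin was also lost without HFD replicate 2 (-0.93), HFD replicate 3 (-0.93), HFD + inulin replicate 1 (-0.97), HFD + inulin replicate 2 (-0.82) or HFD + inulin replicate 6 (-0.86), and without the 3 arrays with pancreas markers (-0.86). HFD + inul PB passed without HFD replicate 1, HFD replicate 5 (-1.05) or HFD replicate 6 (-1.02), and, with its own difference of -0.90, without HFD + inulin replicate 2 or 5. HFD + inul PB also passed with normexp background correction (-0.82), in the authors' processed values (-0.84) and with the replicate number as a block (-0.90), and HFD + inulin did not pass when only the diets compared were fitted (-0.99). Both fiber diets were below HFD within each slide. HFD + inulin minus HFD was -1.33 on slide 1, -1.51 on slide 2 and -0.12 on slide 3, and HFD + inul PB minus HFD was -0.78, -1.77 and -0.15. LFD minus HFD was -0.52, -1.39 and 0.23.

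Lcn2 is also a granule protein of neutrophils, so the neutrophil markers were read on the same arrays. Of the 10 markers 4 were well above background on all 24 liver arrays. Cxcr2 and Retnlg were above background on none, and Ltf, Mpo and Ngp on 1 array each. None of the 10 passed in any comparison. Against HFD, 6 of the 10 were lower with inulin, 5 with inul PB and 5 on LFD. The summed log2 level of the list, which came mostly from the bright probe of Csf3r, had its highest mean on HFD and its lowest on HFD + inulin, as Lcn2 did. It ran from 15.79 to 16.22 on HFD, 15.73 to 15.93 on HFD + inulin, 15.75 to 15.98 under HFD + inul PB and 15.79 to 16.09 on LFD, and its Pearson r with Lcn2 over the 24 arrays was 0.49 (Spearman rho 0.35). Its part in the Lcn2 result was not tested.

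Haptoglobin (Hp), which binds free haemoglobin, had its highest mean on HFD, by small amounts. Its log2 signal ran from 17.91 through 18.08 to 18.12 on HFD, from 17.89 through 17.96 to 18.11 on HFD + inulin, from 17.79 through 17.90 to 17.99 under HFD + inul PB and from 17.53 through 17.86 to 18.00 on LFD. The diets overlapped, with 5 of 6 HFD arrays above every LFD array. LFD minus HFD was -0.24 (SE 0.07; limma P = 0.00183, adjusted P = 0.362, exact permutation P = 0.00649), a 1.18-fold difference that fell short of the fold criterion. HFD + inul PB minus HFD was -0.16 (exact permutation P = 0.00866) and HFD + inulin minus HFD -0.08 (exact permutation P = 0.0952). Within slides, LFD minus HFD lay between -0.30 and -0.20.

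Steap4, a membrane metalloreductase that takes part in iron and copper uptake, also had its highest mean on HFD. It ran from 9.60 through 9.73 to 10.03 on HFD, from 9.43 through 9.59 to 9.80 on HFD + inulin, from 9.01 through 9.42 to 9.90 under HFD + inul PB and from 9.32 through 9.63 to 9.80 on LFD. HFD + inul PB minus HFD was -0.31 (SE 0.12; limma P = 0.0166, exact permutation P = 0.0519), with overlapping arrays and a 1.24-fold difference, and HFD + inulin and LFD were at -0.13 and -0.16. Hemopexin (Hpx), which carries free haem, did not pass in any comparison. It ran from 17.26 to 17.72 over all 24 arrays, and its 95% intervals against HFD were -0.20 to 0.11 on HFD + inulin, -0.19 to 0.13 under HFD + inul PB and -0.10 to 0.22 on LFD.

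Orm1 and Orm2, which encode orosomucoid, an abundant drug-binding plasma glycoprotein, were ordered differently. LFD was the highest diet, followed by HFD, HFD + inul PB and HFD + inulin. Orm1 ran from 14.28 through 14.46 to 14.71 on LFD, from 13.96 through 14.18 to 14.43 on HFD, from 13.71 through 14.13 to 14.46 on HFD + inul PB and from 13.53 through 13.93 to 14.15 on HFD + inulin. Orm2 ran from 14.27 through 14.48 to 14.70 on LFD, from 13.95 through 14.14 to 14.43 on HFD, from 13.88 through 14.12 to 14.43 on HFD + inul PB and from 13.49 through 13.90 to 14.22 on HFD + inulin. For both genes every LFD array lay above every HFD + inulin array, and all other pairs of diets overlapped.

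LFD minus HFD + inulin was 0.58 for Orm1 and 0.60 for Orm2, each with exact permutation P = 0.00216, the smallest that 6 against 6 arrays can give. These were 2 of the 10 genes without overlap, against 0.322% of all probes in the same pair of diets, and they are not independent readings (below). None of the 10 genes was free of overlap in the other 5 pairs, where this held for 0.222% of all probes (HFD + inulin and HFD), 0.122% (HFD + inul PB and HFD), 0.567% (LFD and HFD), 0.214% (both fiber diets) and 0.239% (LFD and HFD + inul PB). The mean of the fiber diets minus LFD was -0.46 for Orm1 (SE 0.11, limma adjusted P = 0.168) and -0.47 for Orm2 (SE 0.11, limma adjusted P = 0.170). Both were 1.38-fold differences, under the fold criterion and over an adjusted P of 0.05. Against HFD, Orm1 was at -0.32 on HFD + inulin, -0.08 under HFD + inul PB and 0.26 on LFD (exact permutation P = 0.0498, 0.526 and 0.0303). Orm2 was at -0.31, -0.04 and 0.29 (exact permutation P = 0.0823, 0.742 and 0.0260). Within the 3 slides the mean of the fiber diets minus LFD lay between -0.64 and -0.32 for Orm1 and between -0.66 and -0.27 for Orm2.

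The probes of Orm1 and Orm2 gave nearly the same pattern over arrays, with Pearson r 0.96 after the mean of each diet was subtracted. The genes are near-identical neighbours with Orm3 between them, the probe sequences were not used here, and each value may hold signal of the other gene. Orm3, chosen after its values were seen and whose probe was also well above background on all 24 arrays, was at -0.72 on HFD + inulin, -0.60 under HFD + inul PB and -0.18 on LFD against HFD, and did not pass.

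The diet means of Apcs and, by smaller amounts, of Hpx followed the order of the orosomucoids. Apcs, serum amyloid P component, is the pentraxin of the mouse acute phase. It ran from 10.57 through 10.72 to 11.08 on LFD, from 10.05 through 10.39 to 11.08 on HFD, from 10.15 through 10.45 to 10.64 on HFD + inul PB and from 9.88 through 10.25 to 10.60 on HFD + inulin. The LFD arrays overlapped those of every other diet, and HFD replicates 2 and 4, at 11.08 and 10.99, lay among the highest arrays. LFD minus HFD was 0.27 (exact permutation P = 0.188). The mean of the fiber diets minus LFD was -0.46 (SE 0.14, limma adjusted P = 0.339), a 1.37-fold difference. LFD minus HFD + inulin was 0.56 (exact permutation P = 0.00433) and LFD minus HFD + inul PB was 0.36 (exact permutation P = 0.0108). The mean over all diets differed by slide, at 10.71 on slide 1, 10.42 on slide 2 and 10.34 on slide 3, and within slides the mean of the fiber diets minus LFD lay between -0.56 and -0.31.

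Fgg, the gamma chain of fibrinogen, ran from 17.73 to 18.34 over the 24 arrays. Its mean was 18.06 ± 0.18 (SD, n = 6) on LFD, 17.98 ± 0.11 on HFD, 17.89 ± 0.08 on HFD + inulin and 17.87 ± 0.11 under HFD + inul PB, and the mean of the fiber diets minus LFD was -0.18 (SE 0.07, limma adjusted P = 0.508). The partner chains were read for comparison. Fga, chosen after its values were seen, was at 0.41 in LFD minus HFD (limma adjusted P = 0.149) and at -0.44 in the mean of the fiber diets minus LFD (SE 0.08, limma adjusted P = 0.0354). Fgb, likewise, was at 0.18 and -0.22 (limma adjusted P = 0.581 and 0.208). Neither chain passed the fold criterion, and the mean of the fiber diets minus HFD was -0.02 for Fga and -0.04 for Fgb.

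Itih3 and Itih4 encode heavy chains of the inter-alpha-trypsin inhibitor family, which bind hyaluronan or act as acute phase proteins in plasma. Itih3 ran from 15.68 to 16.26 over all arrays and Itih4 from 17.10 to 17.52, and their differences from HFD lay between -0.09 and 0.00 on the 3 other diets. The 95% intervals against HFD were -0.27 to 0.14 on HFD + inulin, -0.25 to 0.17 under HFD + inul PB and -0.22 to 0.20 on LFD for Itih3. The dimmer probe of Itih4 gave 0.02, -0.14 and -0.04 on HFD + inulin, HFD + inul PB and LFD against HFD, where the brighter gave 0.00, -0.06 and -0.09, and neither passed.

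**Figure D2:**
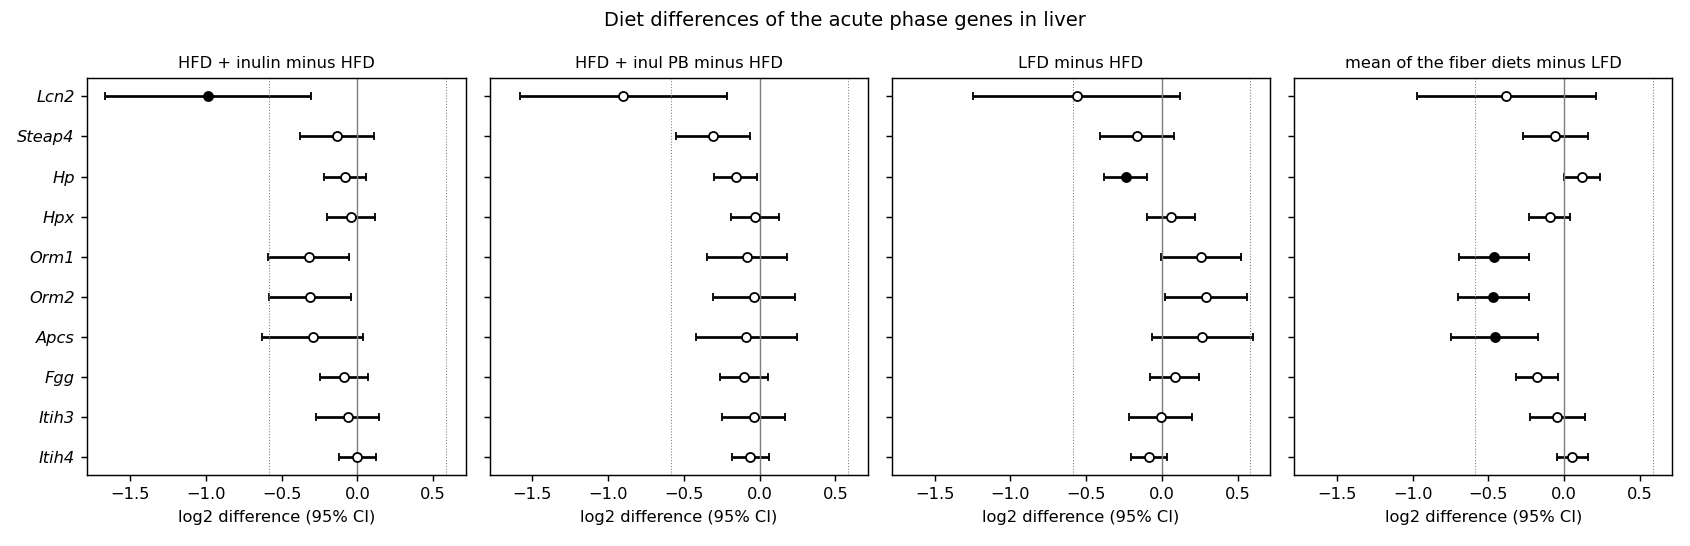
Log2 difference (horizontal axis, with its 95% interval from limma) of each gene (vertical axis) in 4 comparisons of liver, 6 arrays per diet. Filled points have unadjusted P under 0.01 and dotted lines mark 1.5-fold. Lcn2 on HFD + inulin at -0.99 is the filled point beyond a dotted line, and Hp, Orm1, Orm2 and Apcs are filled within them.

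Over the 10 genes, 1 passed the fold and P criteria in HFD + inulin minus HFD, where 0.399% of all 55681 probes did, and none passed in HFD + inul PB minus HFD (0.289% of all probes), LFD minus HFD (0.717%) or HFD + inul PB minus HFD + inulin (0.198%). In the mean of the fiber diets minus HFD 1 passed (0.311% of all probes), and in the mean of the fiber diets minus LFD none (0.774%). P under 0.01 with any fold was reached by 3 of the 10 (Orm1, Orm2 and Apcs, all lower) in the mean of the fiber diets minus LFD. Of all probes 2.09% reached it there, and 1.16% were lower. In LFD minus HFD 1 of the 10 (Hp, lower) reached it, where 1.81% of all probes did and 0.889% were lower. Orm1 and Orm2 are not independent readings, and the 10 genes were chosen with earlier results of these data known. No gene of the 10 reached an adjusted P (limma) of 0.05 in any of the 6 comparisons, and 0.0287% of all probes did in LFD minus HFD, 0.0593% in the mean of the fiber diets minus LFD and 0% in the other 4. At unadjusted P under 0.05, limma gave 3 of the 10 on HFD + inulin, 3 under HFD + inul PB and 2 on LFD against HFD, where 3.79%, 3.13% and 6.77% of all probes reached it. It gave 1 between the fiber diets, 2 for their mean against HFD and 4 for their mean against LFD, where 2.29%, 3.85% and 7.22% of all probes did. The median log2 difference of the 10 was -0.11 on HFD + inulin, -0.09 under HFD + inul PB and 0.03 on LFD against HFD, and -0.14 in the mean of the fiber diets minus LFD, beside medians over all probes of 0.00, 0.00, 0.00 and 0.01. All 10 genes had lower means on HFD + inul PB than on HFD, and 9 of 10 on HFD + inulin, where all probes were lower in 27576 and 27127 of 55681 cases. Against HFD on LFD, 5 genes were higher and 5 lower.

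With the mean of each diet subtracted, Pearson r over the 24 arrays had a median of 0.10 over the 45 pairs and was above 0.5 for 2 of them, Orm1 with Orm2 and Hpx with Fgg (r 0.58, Spearman rho 0.53). The lowest r was -0.60, between Hpx and Itih3 (rho -0.57), and it was -0.30 once slide was also subtracted. The mean of Itih3 was 16.11 on slide 1 against 15.89 and 15.90 on the others, and that of Hpx was 17.35 against 17.51 and 17.50. Lcn2 and Orm2 had r 0.45, which was 0.31 without the 2 arrays farthest from the median of Lcn2. The arrays share their processing and slides, and these values are descriptions.

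**Figure D3:**
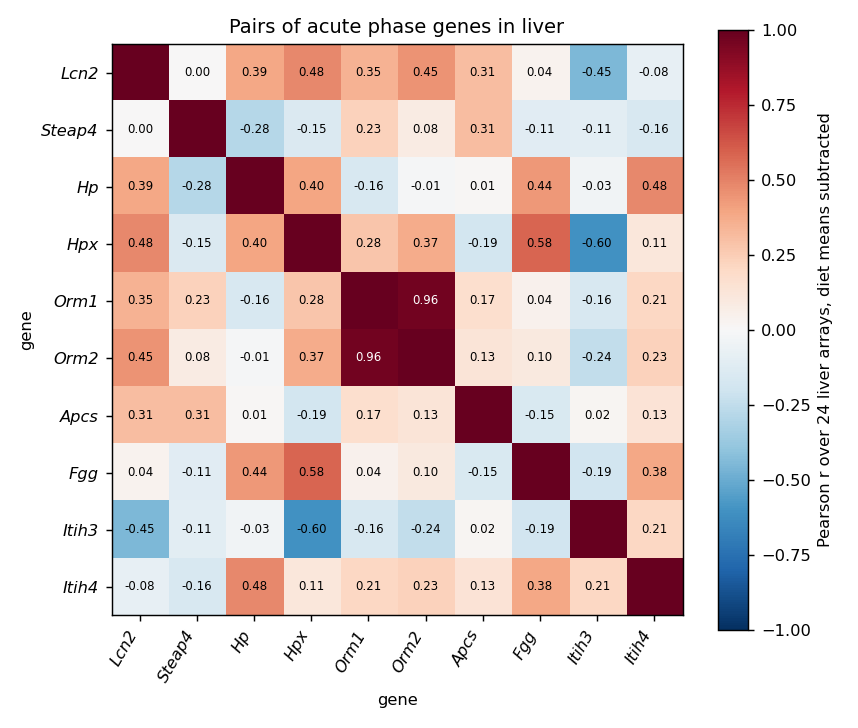
Pearson r of each pair of the 10 genes (both axes) over the 24 liver arrays, after the mean of each diet was subtracted, from -1 in blue to 1 in red. Orm1 with Orm2 at 0.96 stands apart from all other pairs, which lie between -0.60 and 0.58.

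The genes whose pattern was most like the mean of the 10 standardised genes were sought among 11704 other genes well above background on every liver array. The 10 closest by Pearson r over the 24 arrays were C4b, complement component 4 (0.89), the aldehyde dehydrogenase Aldh2 (0.78), Cyp21a1 (0.75), the tight junction gene Cldn2 (0.73), Rarres1 (0.73), Pik3c2g (0.71), Saa1 (0.71), Saa2 (0.70), Prorsd1 (0.70) and Heatr3 (0.70). C4b has a near-identical copy, so its probe may hold signal of both. C4b itself was at -0.18 on HFD + inulin, -0.16 under HFD + inul PB and -0.07 on LFD against HFD, and did not pass. The mean of the standardised genes in SD units was 0.35 ± 0.40 (SD over 6 arrays) on HFD, 0.29 ± 0.42 on LFD, -0.29 ± 0.38 on HFD + inul PB and -0.35 ± 0.30 on HFD + inulin, as a description.

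Among 30 other positive acute phase genes, 28 were well above background on every liver array. Saa1 and Saa2, the acute serum amyloid A proteins, passed against HFD on HFD + inulin (-0.93 and -1.05) and HFD + inul PB (-0.87 and -0.96), each with limma adjusted P = 1.00, and no other gene of the list passed there. On LFD they were at -0.65 and -0.74, which did not pass, beside -0.56 for Lcn2. Saa3 was at -0.04, -0.63 and -0.03 on HFD + inulin, HFD + inul PB and LFD and did not pass. Saa4, the constitutive form, was the gene of the list that passed on LFD, with -0.79 (limma adjusted P = 0.0350), and it was higher by 0.59 in the mean of the fiber diets minus LFD (limma adjusted P = 0.0581). The median of the list was -0.03, -0.06 and -0.04 in these comparisons, with 22, 25 and 19 of the 30 genes lower than on HFD.

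**Figure D4:**
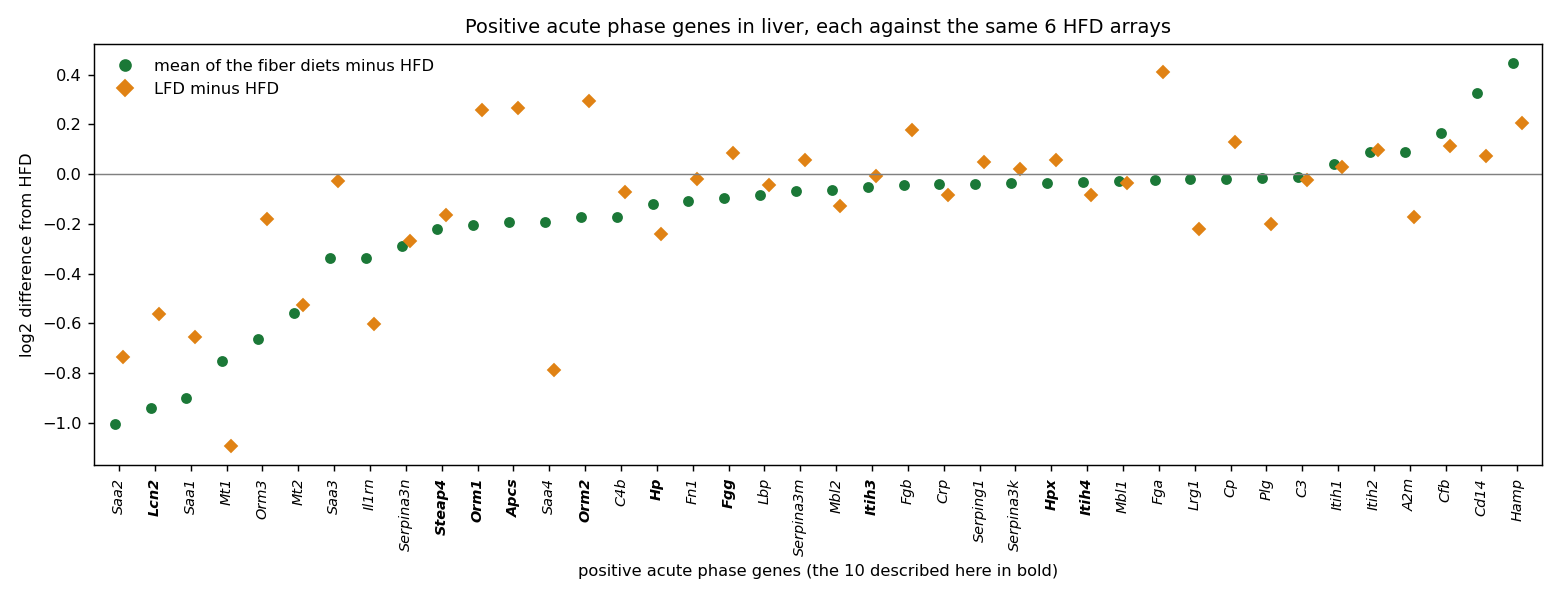
Log2 difference from HFD (vertical axis) of 40 positive acute phase genes in liver (horizontal axis, ordered by the fiber difference, the 10 described here in bold), for the mean of the fiber diets (circles) and LFD (diamonds), which share the same 6 HFD arrays. Saa2, Lcn2 and Saa1 lie at the low end, and Orm1, Orm2 and Apcs have circles below 0 and diamonds above it. The same holds for other genes, among them Hpx (-0.04 and 0.06), Fgg (-0.09 and 0.08), Fga and Fgb.

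None of the 10 negative acute phase genes, whose output usually drops in inflammation, passed the fold and P criteria in limma in any comparison, and their medians against HFD were 0.00, -0.01 and -0.01 on HFD + inulin, HFD + inul PB and LFD. None of 25 genes of interleukin-6, interleukin-1 and STAT3 signalling passed either, with medians of 0.01, -0.01 and 0.01, and 23 of them were well above background on every array. At P under 0.01 in limma with a smaller fold, Nfkbiz, an NF-kB cofactor, was at -0.39 on HFD + inul PB, and was named after its values were seen. The signalling list also had 1 gene lower at that level in LFD minus HFD and in the mean of the fiber diets minus HFD and minus LFD. Of all 55681 probes, 136 were lower at that level on HFD + inul PB, and 495, 243 and 647 in those comparisons. Among the negative genes 1 was higher at that level in the mean of the fiber diets minus LFD, as 519 of all probes were. None of 8 scavenging and uptake genes (Tfrc, Steap3, Lrp1, Ambp, Slc22a17, Hmox1, Cd163 and Lrp2) passed. Of these, Cd163 was well above background on only 1 of 24 liver arrays and Lrp2 on 18.

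Cecum was read for the same genes. Lcn2 was well above background on 22 of 22 cecum arrays, Hp on 21 and Itih3 on 17, while Orm1 and Orm2 were on 10 each, Steap4 on 7, Apcs and Itih4 on 1 each and Hpx and Fgg on none. Lcn2 in cecum had means of 7.14 ± 0.46 for HFD and 7.27 ± 0.51 for HFD + inulin (SD, 6 arrays each), and 7.28 ± 0.21 for LFD and 7.41 ± 0.27 for HFD + inul PB (SD, 5 arrays each). It did not pass, with 0.14 on HFD + inulin, 0.28 under HFD + inul PB and 0.15 on LFD against HFD (limma adjusted P = 0.811, 0.575 and 0.929), where 2.47%, 4.69% and 0.639% of all probes in cecum passed. Tested in 1 model over both tissues, the response in cecum minus that in liver was 1.08 for HFD + inulin (SE 0.41, limma adjusted P = 0.315) and 1.16 for HFD + inul PB (SE 0.42, limma adjusted P = 0.157). The first did not pass, where 2.02% of all probes did, and the second passed, where 3.52% did. For LFD 1.29% of all probes passed. The first passed when HFD replicate 1 (1.18), 5 (1.23), 6 (1.20) or HFD + inulin replicate 5 (1.27) of liver was left out. The pass of the second was lost without HFD replicate 2 (1.10), 3 (1.10) or 4 (0.89) of liver, or HFD + inul PB replicate 2 (1.11), 3 (1.08), 5 (1.17) or 6 (1.16).

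In cecum 4 of the 10 genes (Hp, Orm2, Steap4 and Itih3, all lower) passed on HFD + inul PB against HFD, where 4.69% of all probes did. None passed on HFD + inulin or LFD, where 2.47% and 0.639% of all probes did. Hp ranged far more in cecum than in liver, from 4.86 to 12.97. It was at -2.32 (SE 1.05, limma adjusted P = 0.318) on HFD + inulin and -3.59 (SE 1.10, limma adjusted P = 0.0547) on HFD + inul PB against HFD, and the latter passed. It was at -0.85 on LFD. The level of 7 adipocyte markers was high and low on the same arrays. Their summed log2 level in cecum ran from 14.01 to 17.50 on HFD, 12.08 to 16.56 on HFD + inulin, 12.50 to 14.53 under HFD + inul PB and 12.86 to 17.01 on LFD, and its Pearson r with Hp over the 22 arrays was 0.98 (Spearman rho 0.98), and 0.97 within diets. Orm2 (limma adjusted P = 0.0464) and Steap4 (limma adjusted P = 0.0166) were not well above background on any HFD + inul PB array, against 4 and 3 of 6 HFD arrays that were, so their level on HFD + inul PB is only a bound and no fold is given. With the adipocyte sum over all 22 arrays Orm2 had r 0.92, Steap4 0.89, Orm1 0.87, Itih3 0.32 and Lcn2 0.03. Within diets these were 0.87, 0.85, 0.82, 0.18 and 0.22. Orm1 and Orm2 were well above background on only 10 of these arrays and Steap4 on 7, so many of their values lie near the floor. Other lists also moved with these genes over the 22 arrays. Hp had r 0.81 with the bile duct markers (0.71 within diets), 0.73 with the negative acute phase genes and 0.59 with the hepatocyte markers. Itih3 had r 0.73 with the liver macrophage markers and 0.71 with the signalling genes. The part of fat tissue or of other cell types in these differences was not tested. Itih3 was at -0.98 (SE 0.27, limma adjusted P = 0.0344) on HFD + inul PB against HFD in cecum, where it was well above background on 3 of 5 HFD + inul PB arrays and 6 of 6 HFD arrays.

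**Figure D5:**
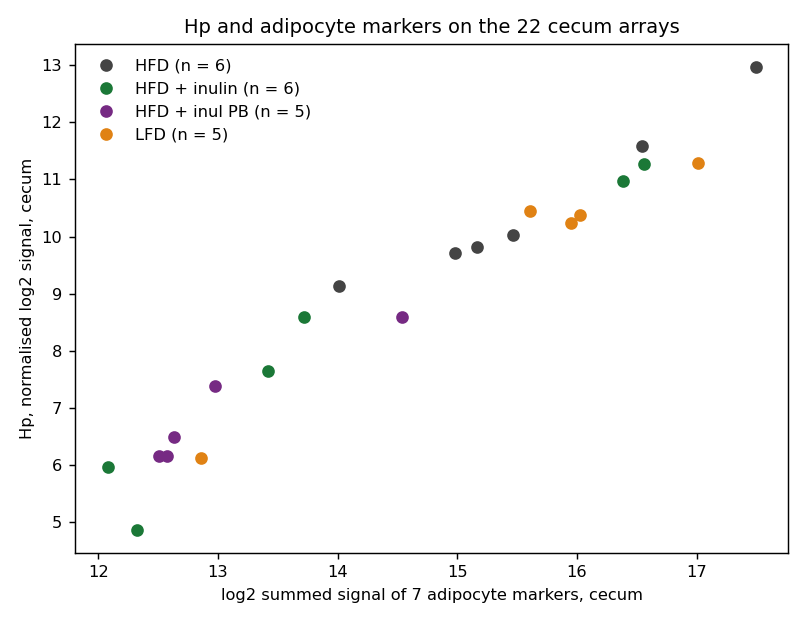
Hp (normalised log2 signal, vertical axis) against the log2 summed signal of 7 adipocyte markers (horizontal axis) on the 22 cecum arrays, coloured by diet. The points run along 1 line in Hp, from 9.13 to 12.97 on HFD and 6.16 to 8.59 on HFD + inul PB. HFD + inulin (4.86 to 11.26) and LFD (6.11 to 11.30) spread over both parts of the line.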

How the data were processed

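Total RNA of liver and cecum was hybridised to Agilent SurePrint G3 Mouse 8x60K arrays in 1 colour (46 arrays). Per the file headers, the deposited scanner files hold intensities from Feature Extraction 10.7.3.1, whose processed signal is corrected for local background and spatial trends, with surrogates for low values. A table deposited by the authors holds their processed log2 values (Pearson r at least 0.999 with the log2 median signal of the same array, column medians 6.26 to 6.38). Its columns tracked the median rather than the processed signal, and it was used as an alternative. From the scanner files, control and outlier spots were left out, and log2 processed signals were normalised by cyclic loess (span 0.7, 3 iterations) within liver. Spots of a probe were averaged, and all 24 liver arrays were fitted by diet with limma 3.58.1 in R 4.3.3. The study's methods also name cyclic loess and limma, but the inputs and versions here differ. Cecum was fitted alone, and both tissues together for the tissue difference. Symbols came from RefSeq (GRCm38.p6). Genes named beyond the 10 were those of other lists that passed against HFD on any diet, Saa1 to Saa3, the 10 most alike genes, markers of other cell types, and exceptions marked in the text. The members and lists were chosen with earlier results of these data known. Normexp (offset 50) was run on median signals, as no mean signal column was used. Other normalisations, filters, blocks, the authors' values and leaving out each liver array were tried as alternatives. No cecum array was left out in turn. The number of arrays limits the precision.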

Additional observations from a re-analysis of the deposited data

Results flagged for a closer look

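The tissue differences below come from 1 limma model over all 46 arrays, normalised together, and chance alone sets about 1 in 20 groups apart by the test on single arrays. Hp on HFD replicate 5 was set apart from the other HFD livers, at 17.91 against 18.04 for the nearest, a gap of 0.639 of the range of the 6 arrays, above the 95% limit of Dixon's test. It was 1 of 40 groups examined, and LFD minus HFD for Hp kept its sign without any single array. The response of Lcn2 in cecum minus that in liver was 1.08 on HFD + inulin (limma adjusted P = 0.315) and 1.16 on HFD + inul PB (limma adjusted P = 0.157). That of Hp was -2.30 on HFD + inulin (limma adjusted P = 0.459) and -3.49 on HFD + inul PB (limma adjusted P = 0.0830), with adipocyte markers moving with Hp in cecum as described above. That of Itih3 was -0.94 on HFD + inul PB (limma adjusted P = 0.128) and -0.76 on LFD (limma adjusted P = 0.654), with the cecum probe not well above background on part of the arrays of both diets. The tissue differences of Orm2 and Steap4 on HFD + inul PB passed the fold and P criteria (limma adjusted P = 0.0663 and 0.0465), where 3.52% of all probes did. No value is given for them, as neither gene was well above background on any HFD + inul PB cecum array. All of these had unadjusted P under 0.05 in the model.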

How the results depend on the processing

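For HFD + inul PB, 1 of the 10 genes met the criteria in place of 0 with normexp, with the authors' processed values and with the replicate block, in each case Lcn2. For HFD + inulin it was 0 in place of 1 when only the diets compared were fitted and when the arrays with pancreas markers were left out, the latter chosen after seeing the data. Leaving out 1 liver array at a time, it ran from 0 to 1 for each fiber diet and for their mean against HFD. The median difference of the 10 genes moved by less than the spread between arrays (0.08) under every alternative run, and its sign changed in 2 of 228 reruns. Single differences that did not pass changed sign in 62 of 2280 reruns, and none that passed did. Over all probes, normexp gave 47, 39, 153, 7, 46 and 136 passing probes in place of 222, 161, 399, 110, 173 and 431, in the order inulin, inul PB and LFD against HFD, inul PB against inulin, and the fiber mean against HFD, then LFD. The authors' values gave 68, 54, 196, 16, 60 and 177, and probes well above background gave 92, 53, 244, 19, 71 and 230. Without HFD + inul PB replicate 3, the comparison of the fiber diets gave 216. Arrays with the same replicate number in different diets had correlated deviations over 0.1 in 19 of 36 pairs, and 19 of 24 arrays correlated best with their own number, a hint from the data of a shared effect. The remaining same-number pairs did not exceed 0.1, and the median was 0.10 over same-number pairs and -0.03 over pairs with different numbers. The labels tie the numbers to nothing. In every diet, however, replicates 1 and 2 lay on slide 1, 3 and 4 on slide 2 and 5 and 6 on slide 3. The fit reported is the one without the block, so its P values and the permutations take no account of this sharing. The replicate block changed the Lcn2 call on HFD + inul PB to a pass and no other call. No member spot was saturated, so the alternative of unsaturated probes gave no other value. The tissue difference of Lcn2 on HFD + inulin passed with normexp (0.99) and that of Itih3 on HFD + inul PB did not (-0.34), nor without HFD replicate 4 (-0.87). The cause of these changes was not tested. With 6 arrays per diet, the differences of Itih3 and Itih4 from HFD were no larger than the spread between arrays.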
